A study of Mus musculus with 6 samples.

Results

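The 10 genes described here mark the blood vessels of the embryonic cortex. Cldn5, Pecam1, Cdh5, Esam, Kdr, Flt1, Tek and Tie1 are genes of endothelial cells, and Pdgfrb and Rgs5 are genes of pericytes, the mural cells that wrap capillaries. They were taken by symbol from a fixed list, and all 10 were found among the 17348 genes of the deposited table. RNA had been sequenced from E13.5 mouse cortex in 3 WT and 3 cKO libraries. In the cKO embryos, both Ybx1 alleles were floxed and deleted by Cre from the Nestin-Cre transgene, which acts in neural progenitors and is inherited by their progeny. The WT libraries came from control littermates. For animal crosses the study gives its controls as Ybx1 fl/fl without Cre, and for RNA sequencing it calls them wild type, so whether these WT embryos carried floxed alleles is not settled by the labels. The number and sex of the embryos behind a library are not given, and the series describes the libraries as different biological replicates.

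Vessels enter the cortical wall from the surrounding perineural plexus and grow towards the ventricle. Endothelial cells arise from mesoderm, and most forebrain pericytes from the neural crest. Most vessel cells therefore do not descend from the neural progenitors in which Nestin-Cre acts. Whether Ybx1 was deleted in any vessel cells was not measured here. Growth of the vessels is guided by neural cells that release VEGF-A and Wnt7 ligands, and pericytes are recruited by PDGF-B from the endothelium. The comparison therefore asked whether transcripts of the vessel cells differed in a cortex whose neural cells had lost Ybx1. In RNA from whole cortex, fewer vessel cells and less RNA per vessel cell cannot be told apart.

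The libraries held 15907486 to 16282921 estimated counts each. Ybx1 gave 1021, 527 and 1219 CPM in WT replicates 1, 2 and 3 and 83.0, 117 and 147 CPM in cKO replicates 1, 2 and 3. All 3 cKO libraries were below all WT libraries, and WT replicate 2 was the lowest of the WT libraries. The log2 fold change of Ybx1 was -3.00 (SE 0.33), with an adjusted p-value of 0.128 in the quasi-likelihood test of edgeR (Benjamini-Hochberg), of 0.0206 in the same test without WT replicate 2 and of 5.46e-10 in DESeq2. The cortical gene Emx1 reached at least 78.7 CPM in every library. CPM here are counts scaled to library size, corrected by TMM factors. Replicate 3 of cKO also held transcripts of tissue that is not neural. Krt5, a basal keratin of the epidermis, had 2153 counts there, while no other library had more than 1, and Col1a1, a fibroblast collagen, reached 128 CPM against 1.36 to 6.02 CPM. The results are therefore given with and without cKO replicate 3.

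All 10 genes were expressed in every library. Per transcript length, in TPM, the pericyte gene Rgs5, a regulator of G protein signalling, was the most abundant of the 10 in all 6 libraries, with 16.6 ± 2.99 TPM (SD, n = 6). Pecam1, a platelet endothelial adhesion molecule, followed with 11.4 ± 1.75 TPM, Cldn5, the main claudin of the blood-brain barrier, with 11.01 ± 2.04 TPM, Cdh5 (VE-cadherin) with 9.96 ± 2.11 TPM and Kdr (VEGF receptor 2) with 9.71 ± 1.70 TPM. The ranges of these 4 genes over libraries lay within 7.85 to 14.15 TPM and overlapped each other, and each pair of neighbours in this order changed places in at least 1 library. Compared within a library, Pecam1 was above both Cdh5 and Kdr in all 6, and Cldn5 was above Kdr in all 6. Esam, an endothelial adhesion molecule, was at 7.74 ± 1.29 TPM. Pdgfrb (5.62 ± 2.10 TPM), Tie1 (5.34 ± 1.18 TPM) and Flt1 (4.12 ± 0.856 TPM) formed a lower group whose ranges also overlapped, although Flt1 was below both others in all 6 libraries. Tek, which encodes the angiopoietin receptor Tie2, was the least abundant in all 6 libraries, at 2.41 ± 0.426 TPM.

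The bases upstream of the annotated start sites of the members were read from RefSeq on GRCm38.p6. A window was found for 6 of the 10 genes (Cldn5, Kdr, Flt1, Tek, Tie1 and Rgs5). For 3 of these the 250 bases before the start lay wholly outside the annotated span of the gene, and they are shown, with a junction gene, a receptor gene and a pericyte gene among them. The windows were searched on both strands for AGGAA, a form of the shorter core GGAA that ETS factors recognise. GGAA after another letter was neither counted nor marked. ETS factors are general regulators of endothelial genes. Capitals mark AGGAA or its reverse complement TTCCT, each sequence is written 5′ to 3′ on the strand of its gene, and the windows lie at chr16:18776597-18776846, plus strand for Cldn5, at chr4:118489850-118490099, minus strand for Tie1 and at chr1:169655251-169655500, plus strand for Rgs5.
Cldn5: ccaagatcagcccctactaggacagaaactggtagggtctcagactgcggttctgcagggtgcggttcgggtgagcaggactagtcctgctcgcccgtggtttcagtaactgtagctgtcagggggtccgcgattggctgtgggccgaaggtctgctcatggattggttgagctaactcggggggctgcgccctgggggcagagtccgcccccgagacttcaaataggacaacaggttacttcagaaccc
Tie1: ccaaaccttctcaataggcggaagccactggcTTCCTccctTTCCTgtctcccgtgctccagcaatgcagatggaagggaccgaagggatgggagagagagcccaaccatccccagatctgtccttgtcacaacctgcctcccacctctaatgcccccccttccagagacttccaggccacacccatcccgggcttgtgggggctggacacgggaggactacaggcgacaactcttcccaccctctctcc
Rgs5: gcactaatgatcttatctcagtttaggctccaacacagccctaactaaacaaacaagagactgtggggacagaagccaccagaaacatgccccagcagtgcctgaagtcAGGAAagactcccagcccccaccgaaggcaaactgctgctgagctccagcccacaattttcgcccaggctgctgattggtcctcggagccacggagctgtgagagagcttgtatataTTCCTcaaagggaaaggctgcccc

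AGGAA was found in 4 of the 6 windows, 2 times in each of Flt1, Tek, Tie1 and Rgs5, and not in the windows of Cldn5 and Kdr. The Kdr window does hold GGAA after other letters. In the Tie1 window the matches began 218 and 209 bases before the start, and in the Rgs5 window 141 and 24 bases before it. Of all 32851 windows of this length, 60.3% held AGGAA, so most windows of any gene hold it. The longer form CCGGAAG, which holds GGAA but not AGGAA and was found in 6.91% of all windows, was in 0 of the 6. A match describes letters only and is not shown to be a site.

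The first group of genes builds the contacts between endothelial cells. Cldn5 (Entrez gene 12741, chr16:18776847-18778262) gave 7.28, 4.89 and 5.18 CPM in WT replicates 1, 2 and 3 and 6.36, 5.52 and 6.33 CPM in cKO replicates 1, 2 and 3. WT replicate 1 was the highest library, WT replicate 2 the lowest, and all 3 cKO libraries lay within the WT range. The means were 5.78 ± 1.303 CPM in WT and 6.07 ± 0.479 CPM in cKO (SD, n = 3 each). On the log2 scale the fold change was 0.069 (95% interval -0.37 to 0.50), and 0.038 without cKO replicate 3. Cdh5 (chr8:104101613-104144504), whose protein holds endothelial adherens junctions together, gave 19.3, 14.9 and 16.2 CPM in WT replicates 1, 2 and 3 and 14.3, 16.7 and 23.7 CPM in cKO replicates 1, 2 and 3. The genotypes overlapped, with cKO replicate 1 lowest and cKO replicate 3 highest of all libraries, and the log2 fold change was 0.12 (95% interval -0.33 to 0.56). Without cKO replicate 3 it was -0.12.

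Pecam1 (chr11:106654213-106715281) varied least among the members, with 17.3, 14.5 and 14.5 CPM in WT replicates 1, 2 and 3 and 16.6, 14.8 and 19.6 CPM in cKO replicates 1, 2 and 3. Its largest value was 1.35 times its smallest, and the log2 fold change was 0.14 (95% interval -0.17 to 0.45), or 0.023 without cKO replicate 3. Esam (chr9:37528089-37538319) gave 6.34, 5.39 and 5.18 CPM in WT replicates 1, 2 and 3 and 5.36, 5.14 and 7.29 CPM in cKO replicates 1, 2 and 3, a log2 fold change of 0.074 (95% interval -0.35 to 0.50), or -0.10 without cKO replicate 3. For both genes the 2 highest libraries were cKO replicate 3 and WT replicate 1, and WT replicates 2 and 3 and cKO replicates 1 and 2 lay below them. Among these 4, both cKO libraries were above both WT libraries for Pecam1, and the genotypes were interleaved for Esam.

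The VEGF receptors came next. Kdr, through which VEGF-A drives endothelial growth (chr5:75932827-75979072), gave 30.7, 21.8 and 24.7 CPM in WT replicates 1, 2 and 3 and 23.2, 24.1 and 29.8 CPM in cKO replicates 1, 2 and 3. The means were 25.7 ± 4.54 CPM in WT and 25.7 ± 3.56 CPM in cKO (SD, n = 3 each), and no difference was detectable, with a log2 fold change of -0.00047 (95% interval -0.35 to 0.35) over all libraries and -0.12 without cKO replicate 3. Flt1, which encodes VEGF receptor 1 and binds VEGF-A as a decoy (chr5:147561604-147726438), gave 13.7, 8.30 and 10.7 CPM in WT replicates 1, 2 and 3 and 11.5, 11.7 and 11.8 CPM in cKO replicates 1, 2 and 3. The 3 cKO libraries lay close together inside a wide WT range, and the log2 fold change was 0.10 (95% interval -0.31 to 0.50), or 0.089 without cKO replicate 3. The ratio of Flt1 to Kdr CPM was 0.448, 0.381 and 0.435 in WT and 0.497, 0.486 and 0.397 in cKO replicates 1, 2 and 3, so the genotypes overlapped in this balance too.

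Tek and Tie1 encode the receptors of the angiopoietin pathway, which steadies young vessels. Tie1 (chr4:118471191-118489849) gave 11.4, 6.07 and 8.81 CPM in WT replicates 1, 2 and 3 and 9.17, 9.15 and 9.89 CPM in cKO replicates 1, 2 and 3. WT replicates 1 and 2 were the highest and lowest libraries of all, and the log2 fold change was 0.10 (95% interval -0.39 to 0.59), or 0.063 without cKO replicate 3. Tek (chr4:94739086-94874976) gave 5.65, 4.21 and 4.75 CPM in WT replicates 1, 2 and 3 and 4.68, 4.58 and 6.33 CPM in cKO replicates 1, 2 and 3. Its highest libraries were cKO replicate 3 and WT replicate 1, and the log2 fold change was 0.094 (95% interval -0.36 to 0.55), or -0.074 without cKO replicate 3. Tek had 68 to 105 counts a library, the fewest of the 10, so that counting alone gave an error of about 11.1% on each value.

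Of the pericyte genes, Rgs5 (chr1:169655501-169695813) gave 36.8, 24.1 and 27.7 CPM in WT replicates 1, 2 and 3 and 31.0, 29.5 and 29.2 CPM in cKO replicates 1, 2 and 3. The cKO libraries lay together near the middle of the WT range, with means of 29.6 ± 6.57 CPM in WT and 29.9 ± 0.976 CPM in cKO (SD, n = 3 each) and a log2 fold change of 0.019 (95% interval -0.33 to 0.37). Without cKO replicate 3 it was 0.035. Pdgfrb, the receptor through which PDGF-B recruits pericytes, gave 16.4, 8.36 and 10.99 CPM in WT replicates 1, 2 and 3 and 10.6, 12.8 and 21.8 CPM in cKO replicates 1, 2 and 3. Replicate 3 of cKO was the highest library and WT replicate 2 the lowest, and the largest value was 2.60 times the smallest, the widest range of the 10. The log2 fold change was 0.34 (95% interval -0.39 to 1.07), and it was -0.023 without cKO replicate 3.

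**Figure D1:**
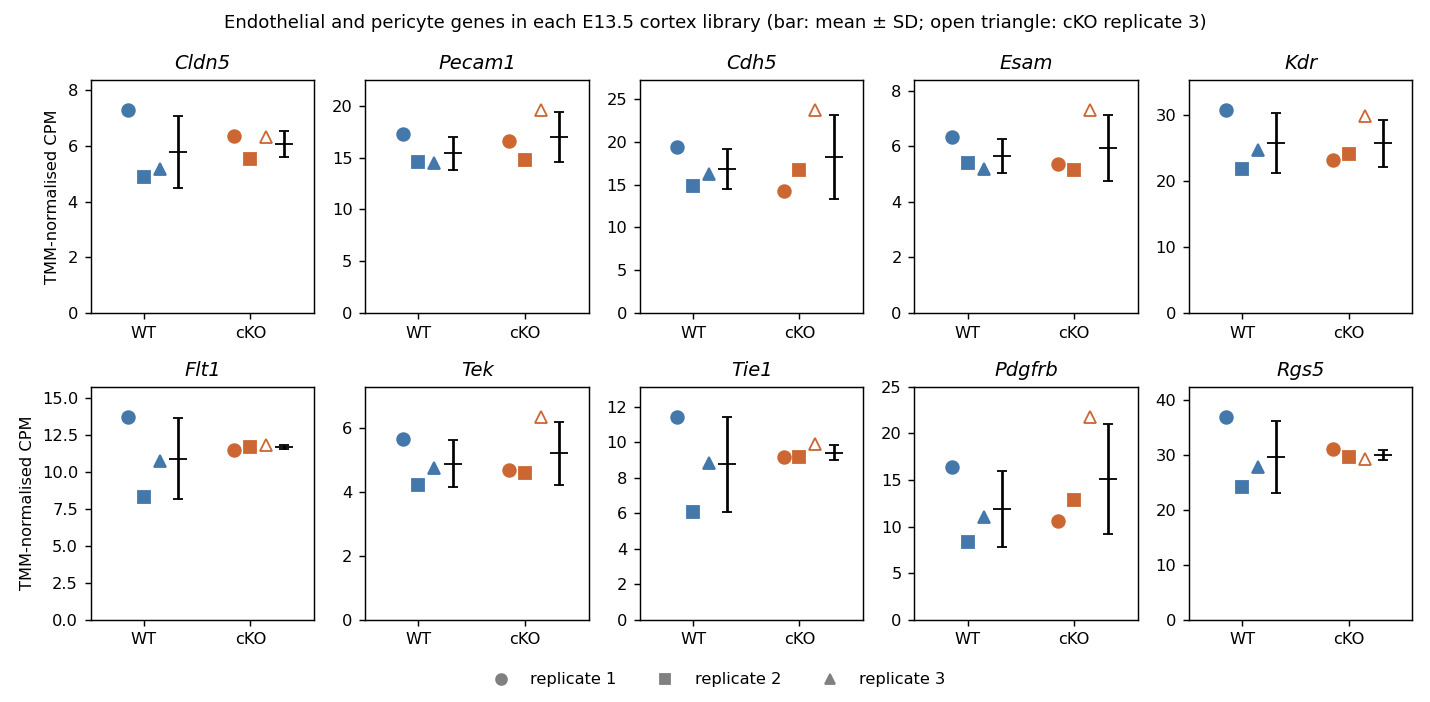
TMM-normalised CPM of the 10 genes (vertical axes, each from 0) in the 3 WT and 3 cKO libraries, with replicates as circles, squares and triangles and the mean ± SD beside them. In every panel the genotypes overlap, and the open triangle of cKO replicate 3 is the highest point for Pecam1, Cdh5, Esam, Tek and Pdgfrb.

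No endothelial or pericyte gene passed the test. In edgeR's quasi-likelihood test, adjusted by Benjamini-Hochberg over all 13340 genes tested, 0 of the 10 had an adjusted p-value under 0.05, where the share of all tested genes called was 0%. Every member had an adjusted p-value of 0.99998. At an unadjusted p-value under 0.05 the count was also 0 of 10, beside 3.57% of all tested genes. The genotypes did not separate fully for any of the 10, where 9.04% of all tested genes had WT and cKO libraries that did not overlap. DESeq2 and limma-voom also called 0 of the 10, adjusted or unadjusted.

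Fold changes were positive for 9 of the 10 genes, with a median of 0.10 on the log2 scale, beside 50.8% positive and a median of 0.0019 over all tested genes. That sign rested on cKO replicate 3 and on WT replicate 2. Without cKO replicate 3, 5 were positive and 5 negative, the median was 4.92539e-05, and 0 of the 10 were called, where 0% of 13424 genes passed adjusted and 2.43% unadjusted. Without WT replicate 2 the median was -0.020, and without both libraries -0.14. The 95% intervals of the full comparison still left room for moderate changes. They reached from -0.39 to 0.59 for Tie1, and their narrowest was -0.17 to 0.45 for Pecam1. Only Pdgfrb had an interval that reached a doubling, at a log2 value of 1.07.

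**Figure D2:**
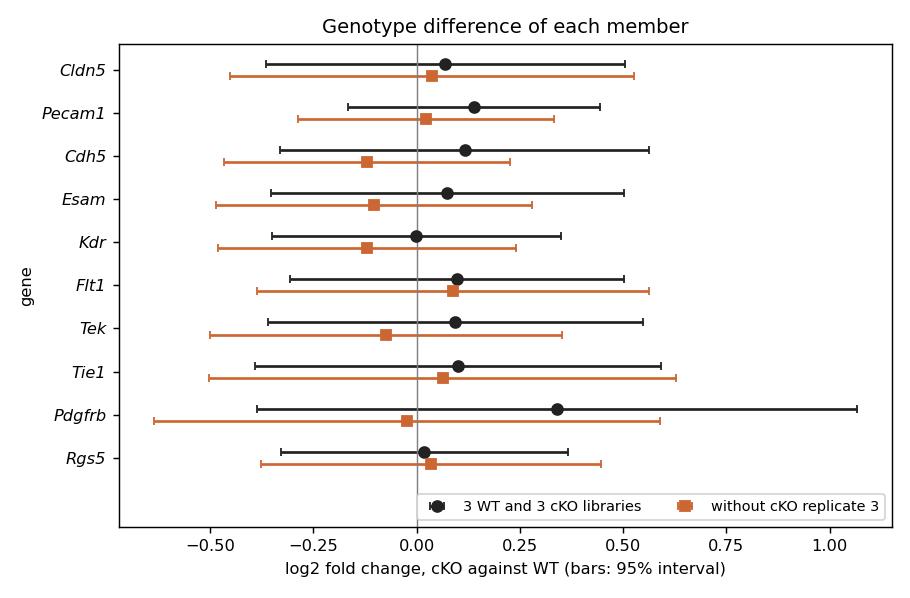
Log2 fold change of each gene in cKO against WT (horizontal axis) with its 95% interval from the edgeR fit, for all 6 libraries (circles) and without cKO replicate 3 (squares). All 20 intervals include 0, and the circle of Pdgfrb, at 0.34, moves to -0.023 when that library is left out.

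The genes instead varied together from library to library, most of all within WT. WT replicate 1 lay above the median library for 10 of the 10 genes and was the highest library for 5. WT replicate 2 was the lowest library for 7 of the 10. Summed over the 8 endothelial genes, WT replicates 1, 2 and 3 gave 112, 80.0 and 90.1 CPM, and cKO replicates 1, 2 and 3 gave 91.2, 91.7 and 115 CPM. The pericyte genes followed the same order within WT, with sums of 53.2, 32.4 and 38.7 CPM, and gave 41.6, 42.4 and 51.0 CPM in cKO. The library with the lowest sums of these genes was thus WT replicate 2, the same library whose Ybx1 level was lowest within WT. Of the further vessel lists described below, the other endothelial and other mural genes also had their lowest sums there, at 181 and 192 CPM. The barrier, peripheral and basement membrane lists had theirs in cKO replicate 1, and the ligands in cKO replicate 2. The part of the makeup of WT replicate 2 in these values was not tested.

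Within WT this spread was in most cases larger than counting error. Among WT libraries the coefficient of variation was 30.6% for Tie1, where counting gave about 8.27%, and 22.2% for Rgs5, where counting gave about 4.57%. Only for Esam was the WT spread (10.9%) close to the counting error (10.4%). Among cKO libraries the spread was below the counting error for 4 genes, at 1.22% for Flt1 (counting error 7.41%), 3.26% for Rgs5, 4.47% for Tie1 and 7.89% for Cldn5 (counting error 10.2%). It was widest for Pdgfrb, at 39.2%.

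**Figure D3:**
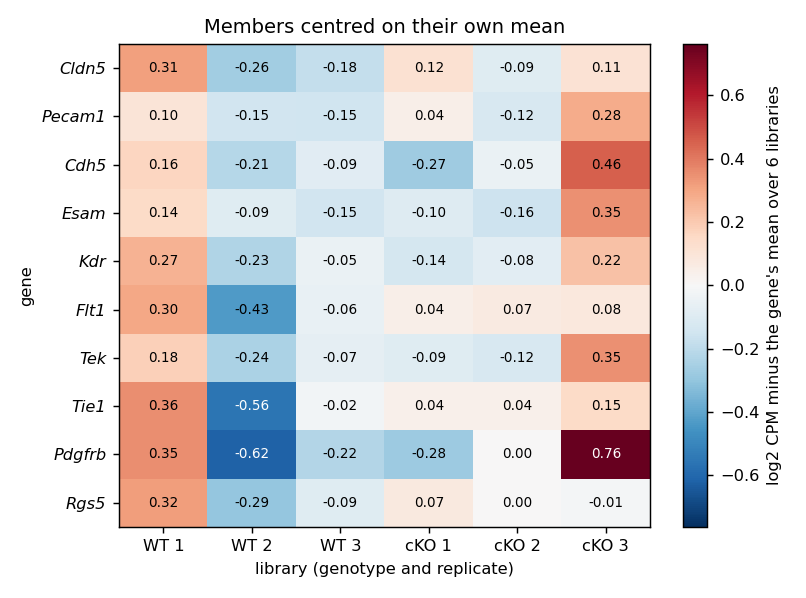
Log2 CPM of each gene minus its own mean over the 6 libraries, by gene (rows) and library (columns), with the value printed in each cell. The columns of WT replicate 1 (all positive) and WT replicate 2 (all negative) differ more than the genotypes do, and the largest single value is 0.76 for Pdgfrb in cKO replicate 3.

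In cKO replicate 3 the genes did not stand alike against the other libraries. Relative to the mean of the other 5 libraries, its level was 1.84-fold for Pdgfrb, 1.46-fold for Cdh5, 1.33-fold for Esam, 1.33-fold for Tek and 1.26-fold for Pecam1. It was 1.20-fold for Kdr, 1.11-fold for Tie1, 1.08-fold for Cldn5, 1.05-fold for Flt1 and 0.980-fold for Rgs5. The pericyte genes parted there. The ratio of Pdgfrb to Rgs5 CPM was 0.744 in cKO replicate 3 and 0.341 to 0.445 in the other 5 libraries. Pdgfrb is also expressed by fibroblasts, whereas Rgs5 is more restricted to pericytes. The ratio of Cdh5 to Cldn5 was likewise highest there, at 3.74 against 2.25 to 3.13. That library was the highest for 5 of the 10 members, beside 15.8% of all tested genes.

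Markers of other tissues moved in the same library. Of 11 fibroblast and meninges markers, 9 were highest in cKO replicate 3 and 8 were more than 3-fold over the mean of the other libraries. The markers not highest there were Foxc1, at 0.662-fold, and Foxd1, at 0.904-fold with 3 to 11 counts a library. The rise was therefore not shared by all 11 markers. The sum of the 11 markers was 41.7 to 45.5 CPM in WT, 36.3 and 59.8 CPM in cKO replicates 1 and 2, and 643 CPM in cKO replicate 3. Twist2 was at 0 in the other 5 libraries. All 7 epidermis markers were highest there, with a sum of 284 CPM against 1.38 to 2.43 CPM elsewhere, and Krt14 had 823 counts against at most 1. Acta2, the actin of smooth muscle and myofibroblasts, had 421 counts against 0 to 7. Of 11 genes of peripheral and lymphatic endothelium, 7 were highest in that library and 4 were more than 3-fold over the mean of the others. Over all 17348 genes in the table, these counts were 3382 and 1274. The 4 genes had at most 30.6 estimated counts in any library. Plvap, at 0.905-fold, was not among the 7. Among the genes with low counts, Lyve1 had 25 counts against 2 to 7 in the other libraries, and Ccl21a, like Twist2 named after its values were seen, had 30.6 estimated counts against 0 to 1.29. Their part in the higher Pdgfrb and Cdh5 levels was not tested.

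**Figure D4:**
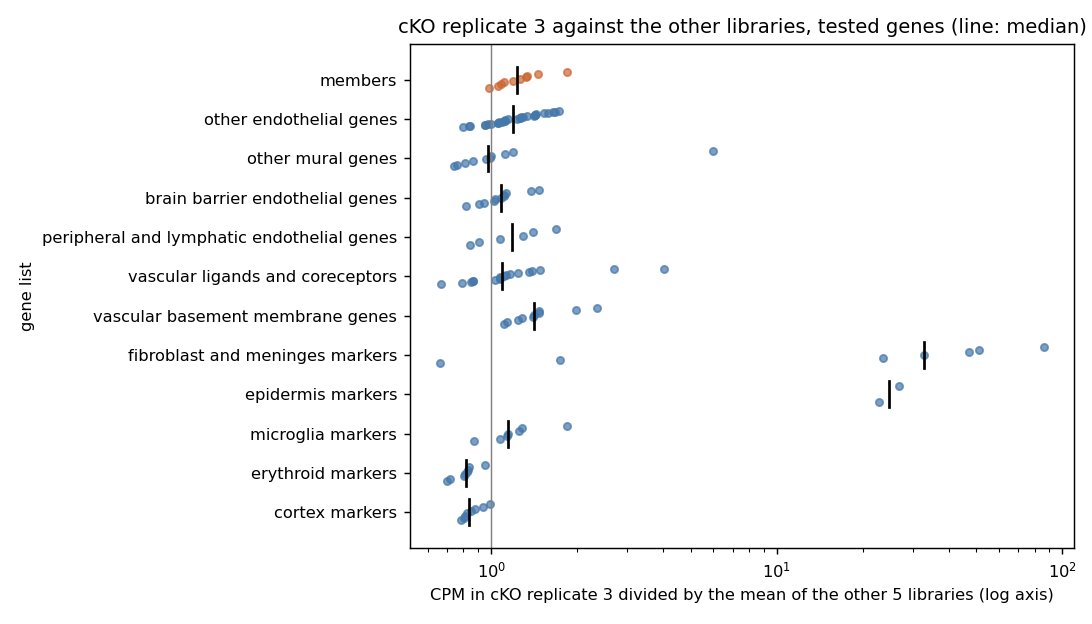
CPM in cKO replicate 3 divided by the mean of the other 5 libraries (log axis), 1 point for each tested gene of each list, with the median as a line. The 10 members have a median ratio of 1.23, basement membrane genes 1.41, fibroblast and meninges markers 32.8 and cortex markers 0.837. Foxc1, of the fibroblast and meninges list, lies at 0.662.

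The wider set of vessel genes showed the same absence of calls. Over 6 further lists, 98 of 99 genes were in the table and 85 were tested. Of these, 0 passed the adjusted threshold in the edgeR test, 3 (3.53%) had an unadjusted p-value under 0.05 and 6 (7.06%) had genotypes that did not overlap, beside the 3.57% and 9.04% of all tested genes given above. The 3 were Mcam, a mural and neural adhesion molecule with a log2 fold change of 0.27 (SE 0.087), Sparc, a secreted matrix protein, with 0.73 (SE 0.28), and Nrp2, a coreceptor for VEGF-C and semaphorins, with -0.25 (SE 0.10). In Mcam, Sparc and Vegfc the cKO libraries lay above WT, and in Arhgef15, Abcb1a and Abcg2 below. Other than Abcb1a, these genes were named after their values were seen. Without cKO replicate 3 the log2 fold changes of Mcam, Sparc and Nrp2 were 0.22, 0.28 and -0.21, and Mcam and Nrp2 no longer had an unadjusted p-value under 0.05. In that edgeR fit 2 of the 85 had one, Sparc and Tal1, beside 2.43% of all tested genes. Tal1, also named after its values were seen, had a log2 fold change of 0.74 there.

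Among 30 other endothelial genes, 18 had positive and 12 negative fold changes, with a median of 0.047 and of -0.078 without cKO replicate 3. Eng, a coreceptor for TGF-beta family ligands, gave 11.3 ± 2.73 CPM in WT and 11.95 ± 2.06 CPM in cKO (SD, n = 3 each), Egfl7, a secreted endothelial protein, 4.16 ± 0.764 CPM in WT and 4.70 ± 0.646 CPM in cKO (SD, n = 3 each), and Emcn, an endothelial sialomucin, 3.93 ± 0.838 CPM in WT and 3.75 ± 1.17 CPM in cKO (SD, n = 3 each). Their log2 fold changes were 0.087 (SE 0.20), 0.18 (SE 0.20) and -0.066 (SE 0.27), each within the spread of the libraries, and -0.054, 0.072 and -0.35 without cKO replicate 3.

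Genes of the barrier and transport functions of brain endothelium gave no common direction. Of 11 tested, 6 had positive and 5 negative fold changes with a median of 0.011, or -0.036 without cKO replicate 3. Slc2a1, the glucose transporter of the barrier, which neural cells also express, had a log2 fold change of 0.22 (SE 0.14), or 0.069 without cKO replicate 3. Mfsd2a, which limits transcytosis, had 0.011 (SE 0.10), or -0.036 without that library. In WT its mean was 28.8 TPM, against 10.8 TPM for Cldn5. Which cells these transcripts came from cannot be told in whole cortex, so the list is not a measure of endothelium alone. Abcb1a, the efflux pump P-glycoprotein, gave 2.64, 1.49 and 1.62 CPM in WT replicates 1, 2 and 3 and 1.43, 0.815 and 1.45 CPM in cKO replicates 1, 2 and 3. For this gene every cKO library was lower than every WT library, by small margins at a low level. The log2 fold change was -0.63 (SE 0.34), and the edgeR test gave it an adjusted p-value of 0.99998. It was -0.76 without cKO replicate 3, -0.33 without WT replicate 1, -0.41 without cKO replicate 2 and -0.25 on the log2(TPM + 1) scale. Of 11 genes of peripheral and lymphatic endothelium, 6 were tested, 2 with positive and 4 with negative fold changes. Plvap, a diaphragm protein of immature and leaky endothelium, had a log2 fold change of -0.10 (SE 0.20), or -0.072 without cKO replicate 3.

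Further mural genes gave no common direction. Of 17 listed, 10 were tested, 4 with positive and 6 with negative fold changes, and a median of -0.026, or -0.0043 without cKO replicate 3. Kcnj8, a potassium channel subunit of pericytes, had a log2 fold change of 0.089 (SE 0.30), and Cspg4, the NG2 proteoglycan of pericytes and glial precursors, had -0.29 (SE 0.27). Notch3, expressed by mural cells and by radial glia, had -0.0072 (SE 0.10). Without that library the values were 0.25 for Kcnj8, -0.37 for Cspg4 and 0.012 for Notch3. All 10 basement membrane genes had positive fold changes, with a median of 0.12. Without cKO replicate 3, 2 of the 10 were positive and the median was -0.065. Col4a1 and Col4a2, the collagen chains of vessel basement membranes, had log2 fold changes of 0.21 (SE 0.20) and 0.21 (SE 0.22), and 0.026 and -0.0047 without that library.

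The ligands that reach the vessels come from several cell types. Vegfa, the main endothelial growth factor, gave 88.2, 75.3 and 71.4 CPM in WT replicates 1, 2 and 3 and 87.2, 89.4 and 85.1 CPM in cKO replicates 1, 2 and 3. The genotypes overlapped through WT replicate 1, and the log2 fold change was 0.16 (SE 0.087). It was 0.17 without cKO replicate 3, 0.25 without WT replicate 1 and 0.093 without WT replicate 3. Wnt7a and Wnt7b, the ligands made by neural progenitors and neurons that induce the barrier, had log2 fold changes of 0.18 (SE 0.093) and -0.087 (SE 0.14). Adgra2, an endothelial coreceptor for Wnt7 that perivascular and mesenchymal cells express as well, gave 6.97, 3.59 and 5.81 CPM in WT replicates 1, 2 and 3 and 4.86, 4.89 and 21.1 CPM in cKO replicates 1, 2 and 3. Its log2 fold change of 0.92 (SE 0.58) rested on cKO replicate 3 and was -0.16 without it. Pdgfb, made by endothelial tip cells, had 0.17 (SE 0.20), and the Tie2 ligands Angpt1 and Angpt2 had -0.049 (SE 0.18) and 0.12 (SE 0.33). Without cKO replicate 3 the values were 0.15 for Wnt7a, -0.023 for Wnt7b, 0.17 for Pdgfb, -0.22 for Angpt1 and 0.34 for Angpt2. Over the 18 genes of that list the median was 0.14, and 0.041 without cKO replicate 3. None of these ligands and coreceptors passed the adjusted threshold in the edgeR test.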

How the data were processed

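The authors extracted RNA with Trizol and sequenced the mRNA on a DNBSEQ instrument. The submitters' processing notes name HISAT2 2.2.1, Bowtie2 2.4.5 and RSEM 1.3.1 with GRCm38 and mm10, and do not say which tool made which value. Annotation and strand setting are not given in the sources used here. The authors deposited estimated counts, unscaled, beside TPM, scaled to a common sum per library, and the FPKM values deposited by the authors were not used, nor were 6 columns of group averages. Columns named Ctrl were read as the WT samples of the same number.

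Counts were rounded (10.9% were not whole). Genes were kept by filterByExpr (minimum count 10, minimum total 15), leaving 13340, and tested for genotype with edgeR's quasi-likelihood test (edgeR 4.0.16, limma 3.58.1, DESeq2 1.42.0, R 4.3.3) across all genes, with TMM factors of 0.987 to 1.03 and Benjamini-Hochberg adjustment. The standard error is the fold change over the square root of F, and 95% intervals use the t quantile of that fit.  With 3 against 3 libraries an exact two-sided permutation test cannot go below 0.1. Named were the 10 members, Ybx1, 29 set genes of the lists (1 is not reported here) and the 10 nearest in pattern. Others were named after their values were seen. The members and lists were chosen with earlier results of these data known. Alternatives were RLE and upper-quartile factors, library totals, a minimum of 10 counts in each library, omission of the filter, DESeq2, limma-voom, limma on log2(TPM + 1), the replicate block, each library left out, and WT replicate 2 and cKO replicate 3 left out together. The series text mentions 3 batches of sequencing without naming their libraries, so no within-batch value can be given. Coordinates are RefSeq genes on GRCm38.p6, with 99.7% of Entrez identifiers matched. Counting errors hold for counting only, since no molecular identifiers separated PCR copies.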

Additional observations from a re-analysis of the deposited data

How the results depend on the processing

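The count of endothelial and pericyte genes called was 0 in all 16 alternatives, adjusted and unadjusted, and the lowest adjusted p-value of any of them was 0.703 over the edgeR, DESeq2 and limma fits. Directions were less firm, since 31 of 160 fold changes of the members and 34 of 320 of the other named genes had the opposite sign. Leaving out 1 library at a time gave log2 fold changes of -0.12 to 0.15 for Kdr, -0.038 to 0.27 for Cldn5, -0.12 to 0.28 for Cdh5, -0.10 to 0.17 for Esam, -0.067 to 0.30 for Flt1, -0.074 to 0.22 for Tek, -0.11 to 0.34 for Tie1, -0.023 to 0.65 for Pdgfrb, -0.11 to 0.21 for Rgs5, -0.35 to 0.13 for Emcn, -0.054 to 0.30 for Eng, -0.43 to 0.045 for Cspg4, -0.18 to 0.31 for Kcnj8, -0.12 to 0.084 for Notch3, -0.036 to 0.090 for Mfsd2a, -0.27 to 0.070 for Plvap, -0.22 to 0.087 for Angpt1, -0.042 to 0.34 for Angpt2, -0.018 to 0.30 for Pdgfb, -0.24 to 0.017 for Wnt7b, -0.16 to 1.27 for Adgra2 and -0.0047 to 0.46 for Col4a2, where the sign turned in at least 1 fit. It did not turn for Pecam1 (0.023 to 0.23), Abcb1a (-0.79 to -0.33), Slc2a1 (0.069 to 0.34) and Vegfa (0.093 to 0.25), nor for Egfl7, Wnt7a, Col4a1 and Ybx1. The median over the members lay between -0.020 and 0.23. Without both WT replicate 2 and cKO replicate 3, values turned to -0.069 for Cldn5, -0.017 for Pecam1, -0.20 for Cdh5, -0.13 for Esam, -0.074 for Flt1, -0.17 for Tek, -0.14 for Tie1, -0.22 for Pdgfrb, -0.092 for Rgs5, -0.19 for Eng, -0.0030 for Slc2a1, -0.078 for Mfsd2a, -0.018 for Pdgfb, -0.39 for Adgra2, -0.12 for Col4a1 and -0.15 for Col4a2. Kdr was at -0.23 in that fit, the same sign as over all libraries, and was at 0.0019 with RLE factors, 0.015 with upper-quartile factors, 0.024 with library totals, 0.00045 with at least 10 counts in every library, 0.0019 with DESeq2, 0.0069 with limma-voom and 0.00039 on log2(TPM + 1), and Notch3 was at 0.0056 with upper-quartile factors and 0.014 with library totals. Over all genes tested, the edgeR test called 0 genes in either direction after adjustment. DESeq2 called 2 higher and 2 lower, the fit without both libraries 1 and 1, and the fits without 1 library 0 to 1 in each direction. The cause was not tested. The share of higher genes among unadjusted calls was 49.2%, and 65.4% with library totals, 60% with no filter and 59.5% on log2(TPM + 1).

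Replicate numbers do not pair the libraries as far as the labels say, and deviations from the genotype means correlated by 0.489, 0.334 and 0.00381 for replicates 1, 2 and 3. With the replicate block, 0 of the 10 members were called, 1 gene was higher and 1 lower over all genes, and Kdr was at 0.0043. Among the 30 genes refitted with the block, no other changed sign.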

Other observations

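The genes whose pattern over the 6 libraries was most like that of the 10 vessel genes were sought among 13330 others. The measure was the root mean square difference between the centred log2 CPM of a gene and the mean of the centred members. The nearest 10 were Crim1, Eng, Thsd1, Plekho2, Nid1, Arhgap45, Farp1, Rab34, Rhebl1 and Axin2, with differences of 0.0679 to 0.0830 log2 units, where the median gene was at 0.247. Eng and Nid1 are on the vessel lists described above, and Axin2 is a general target of Wnt signalling. Of the nearest 100 genes, 11 were on those lists, which hold 0.638% of the genes ranked. Over the 5 libraries without cKO replicate 3, the nearest 10 were Ints1, Bgn, Ppt2, Gm52437, Arhgap31, Thbd, Nfatc2, Plekhg2, Tmem121b and Scaf1, at 0.0249 to 0.0478 log2 units, 0 of them on the lists, and 2 of the nearest 100 were. Thbd, which encodes thrombomodulin of the endothelial surface, was among these 10. The likeness covers few libraries and carries no test.

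Microglia also reach the cortex from outside the neural lineage. The 8 marker genes summed to 34.1, 20.7 and 24.1 CPM in WT replicates 1, 2 and 3 and to 30.5, 22.6 and 29.96 CPM in cKO replicates 1, 2 and 3. WT replicate 2 was lowest, as for the sum of the 10 vessel genes. Csf1r, the receptor on which microglia depend, had a log2 fold change of 0.034 (SE 0.27), or -0.00042 without cKO replicate 3. Red cell transcripts, which travel inside vessels, did not follow that order. The 9 erythroid genes summed to 876, 762 and 641 CPM in WT and 1118, 840 and 689 CPM in cKO, and their lowest library was WT replicate 3. All 8 erythroid genes tested had positive fold changes, with a median of 0.20 on the log2 scale, or 0.34 without cKO replicate 3, and 0 passed the adjusted threshold or an unadjusted p-value under 0.05 in the edgeR test over all libraries, where 1 (Hba-x, named after its values were seen) had an unadjusted p-value under 0.05 without that library. Hbb-bt, an adult beta globin, had a log2 fold change of 0.12 (SE 0.21), or 0.31 without it. The 8 cortex markers summed to 3098 CPM in cKO replicate 3, the lowest value, against 3257 to 4152 CPM in the others. The choroid plexus marker Ttr had at most 2 counts in a library. Of the 4 muscle markers in the table, none passed the filter on low counts.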
